A study of Mus musculus with 12 samples.

Results

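miR-34a is a microRNA (miRNA), a short RNA that silences messenger RNAs it can pair with, and is known as a direct transcriptional target of p53, the stress-responsive tumour suppressor. Both arms of its hairpin, mmu-miR-34a-5p and mmu-miR-34a-3p in the files, were followed here, 2 of the 1978 miRNA rows in the count files, taken by name. Counts came from E14 mouse embryonic stem cells paused by mTOR inhibition (paused ESC), the same line without the inhibitor (control ESC, labelled WT), trophoblast stem cells paused by mTOR inhibition (paused TSC) and trophoblast stem cells without it (control TSC, labelled WT). mTOR is a kinase that drives growth, and its inhibition puts these cells into a reversible dormant state. The labels name no mutation or transgene in any group, and they do not give the inhibitor, its dose, the time of treatment or the origin of the TSC. E14 is 1 cell line, so differences between ESC and TSC are differences between these cultures.

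The labels list 12 samples, 3 per group, but in each group the files of replicates 2 and 3 were identical at all 1978 miRNAs and were counted as 1 library, which left n = 2 in each of 4 groups. Nothing in the labels says that libraries came from separate cultures, so p-values measure only the spread between these samples, which may be technical. Total counts were 73574 and 61749 in paused ESC, 19266 and 13607 in control ESC, 23652 and 30487 in paused TSC, and 115492 and 18725 in control TSC. Levels are given in CPM, in which a count is set against the library's total miRNA count, scaled between libraries with edgeR's TMM factors unless the total count alone is named. A CPM is a share of the library, so a fall can mean fewer cells with the miRNA or less of it per cell, which cannot be told apart in bulk samples. Of the miRNAs listed as markers, those of embryonic stem cells held up to 9.05% of counts in paused ESC and up to 9.50% in control ESC, with 7.39% the lowest of these 4 libraries, against 2.63% to 2.88% in paused TSC and 1.43% to 2.05% in control TSC. Those of trophoblast stem cells held 0.126% to 0.132% in paused ESC and 0.0882% to 0.147% in control ESC, against 5.65% to 7.47% in paused TSC and 10.0% to 11.1% in control TSC. By these summed shares each library matched the cell type on its label, while single markers changed with pausing, as given beside the comparisons.

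In its textbook role miR-34a-5p is the arm loaded into the silencing complex, and it represses genes of the cell cycle and of survival such as Cdk6, Ccnd1, Bcl2 and Sirt1. In mouse pluripotent cells, loss of miR-34a is known to widen developmental potential toward extraembryonic lineages, the side to which trophoblast belongs. The gene Mir34a lies on the plus strand of chromosome 4 (GRCm38, chr4:150068454-150068555), where the last 17 bases of the hairpin overlap Gm37795, an unclassified transcript of the GENCODE annotation. The nearest protein-coding genes are Gpr157, 18810 bases to the right, and H6pd, 59431 bases to the left. Both arms were found in the RefSeq table (GRCm38.p6). The hairpin is printed with the arms in capitals to show which stretches were counted, and the mature arms with the seed, bases 2 to 8, in capitals because the seed sets which messages are bound and defines the family.
Mir34a hairpin: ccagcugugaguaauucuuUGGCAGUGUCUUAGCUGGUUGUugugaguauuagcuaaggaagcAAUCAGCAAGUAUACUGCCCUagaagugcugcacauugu
miR-34a-5p: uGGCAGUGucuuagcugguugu
miR-34a-3p: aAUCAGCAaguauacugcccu
miR-34b-5p: aGGCAGUGuaauuagcugauugu
miR-449a-5p: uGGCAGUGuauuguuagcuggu
miR-449c-5p: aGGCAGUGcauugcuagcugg

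The 5p seed GGCAGUG was shared by 4 mature entries of the RefSeq table, which are miR-34a-5p, miR-34b-5p (chromosome 9), miR-449a-5p and miR-449c-5p (both chromosome 13). miR-34c-5p, a further family member in the count files, is named only. Compared base by base from the 5′ end without gaps, miR-449a-5p matched miR-34a-5p at 15 of 22 positions, miR-449c-5p at 12 of 21 and miR-34b-5p at 11 of 22, the 7 seed positions included. Bases shared at an offset are not counted in this comparison. The 3p seed AUCAGCA was found in 1 entry, miR-34a-3p itself. In the minimum free energy fold of the hairpin (−42.6 kcal/mol, RNAfold), 18 of the 22 bases of the 5p arm paired with the 3p arm, including all 7 seed bases.

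miR-34a-5p stood in the same order in every library, with paused ESC lowest, then control ESC, paused TSC and control TSC. It had 82 and 82 counts in paused ESC, or 1023 and 1268 CPM, against 90 and 70 counts in control ESC, or 4102 and 4474 CPM. In TSC it had 253 and 363 counts in paused cells, or 10457 and 10977 CPM, against 1527 and 289 counts in control cells, or 19452 and 17395 CPM. No library of one group overlapped with one of another, on this scale or with the total count alone. Among all tested miRNAs, 35% had every ESC library of either state below every TSC library of either state on the TMM scale. On the same scale 11.7% had paused below control without overlap in both cell types. The share of miRNAs separated between all groups was not counted on either scale, so how common this order is cannot be told. By rank among all miRNAs of a library it was number 59 and 54 in paused ESC and 24 in both control ESC libraries, against 20 and 19 in paused TSC and 14 in both control TSC libraries. The deepest ESC libraries were the paused ones and the deepest TSC library a control, so each comparison was also made with all libraries thinned to the smallest total, 13607 counts.

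miR-34a-3p, the passenger arm, was rarer in all libraries. It had 16 and 12 counts in paused ESC, or 200 and 186 CPM, against 15 and 11 counts in control ESC, or 684 and 703 CPM. In TSC it had 17 and 27 counts in paused cells, or 703 and 816 CPM, against 145 and 18 counts in control cells, or 1847 and 1083 CPM. Control ESC and paused TSC overlapped in this arm, while the groups compared for pausing did not.

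**Figure D1:**
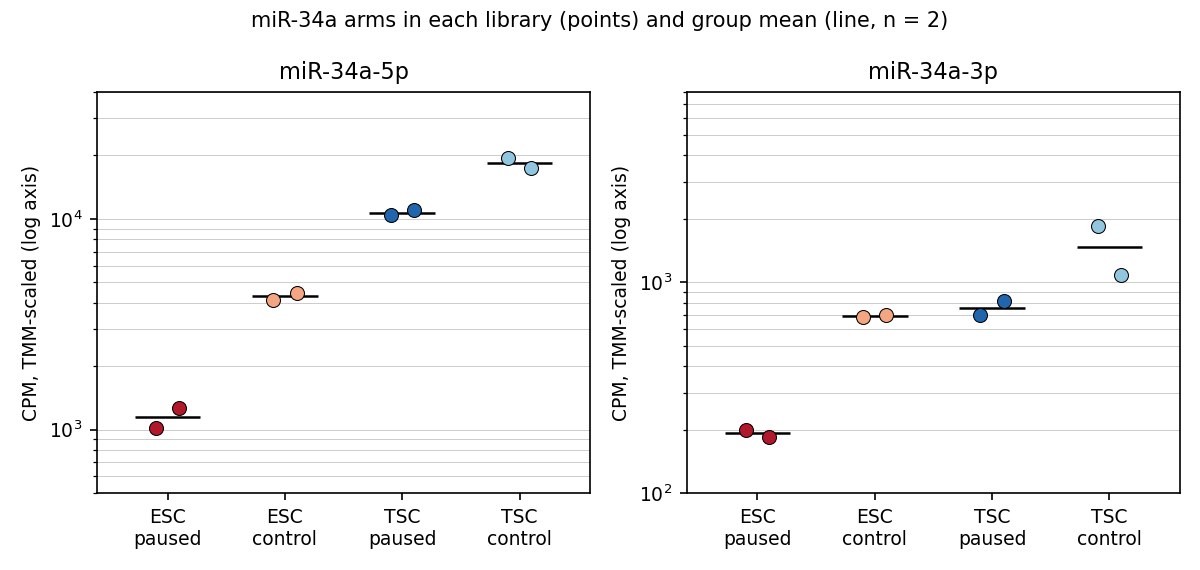
Level of each miR-34a arm (CPM, TMM-scaled, log axis) in the 8 libraries, with points for libraries and a line for the mean of each group (n = 2). miR-34a-5p is separated between all 4 groups, from 1023 CPM in the lowest paused ESC library to 19452 CPM in the highest control TSC library. The share of all miRNAs so separated was not counted. miR-34a-3p of control ESC and paused TSC lies at the same height.

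Both arms fell in paused ESC. miR-34a-5p averaged 1145 ± 174 CPM in paused ESC and 4288 ± 263 CPM in control ESC (SD, n = 2 each), a log2 fold change of −1.90 ± 0.36 (SE) with a 95% interval of −2.61 to −1.20 (edgeR quasi-likelihood test, adjusted p = 1.82e-06). miR-34a-3p averaged 193 ± 9.82 CPM in paused ESC and 693 ± 13.7 CPM in control ESC, a log2 fold change of −1.83 ± 0.50 (SE; edgeR adjusted p = 0.00185). These are decreases of 3.74-fold and 3.55-fold. Of the 206 miRNAs tested, 19.4% were called lower and 27.7% in either direction, so a call by itself was common in this comparison. A lower log2 fold change than that of miR-34a-5p was found for 16.0% of them, and for 17.0% a lower one than that of miR-34a-3p. The median of all tested miRNAs was −0.03. Non-overlap with paused below control was also common, at 34% of tested miRNAs.

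The call of miR-34a-5p held with thinned libraries (log2 fold change −1.82) and in all 8 fits that left out a library, with edgeR adjusted p between 5.03e-09 and 0.00517. That of miR-34a-3p rests on few counts: its adjusted p was 0.0503 by DESeq2, 0.0570 with no filter and 0.201 with thinned libraries, and it was also lost without paused ESC replicate 2 (0.0572), control ESC replicate 1 (0.122) or control ESC replicate 2 (0.110).

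The miR-302/367 cluster, which marks pluripotent cells, also fell in paused ESC. miR-302b-3p had 3 counts in paused ESC and 28 in control ESC (log2 fold change −5.02, edgeR adjusted p = 2.95e-06), miR-302d-3p had 1 and 22 (−5.92, 3.58e-05) and miR-367-3p had 4 and 40 (−5.14, 2.57e-09). These 3 were the called ones among 7 tested embryonic stem cell markers. In paused TSC each of the 3 had 0 counts. None of the 3 differed past the threshold between paused ESC and paused TSC, but these counts are too few for that test to decide. The other 4, of the miR-17-92 cluster, carry most of the list's summed share, with miR-19a-3p the largest part (9575 counts in paused ESC). Of these 4, 3 were called higher in paused ESC than in paused TSC. The exception was miR-17-5p (log2 difference −0.12, edgeR adjusted p = 0.727). The higher summed share of this list in paused ESC than in paused TSC thus rests mainly on miR-19a-3p. The match of paused ESC to its label also rests on the trophoblast stem cell markers. All 5 of those tested were called lower in paused ESC than in paused TSC by edgeR, and 4 by DESeq2. The part of this marker change in the fall of miR-34a was not tested.

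In paused TSC neither arm passed the test, although all library values lay below those of control TSC. miR-34a-5p averaged 10717 ± 368 CPM in paused TSC and 18424 ± 1455 CPM in control TSC, a log2 fold change of −0.78 ± 0.32 (SE; 95% interval −1.42 to −0.15; edgeR adjusted p = 0.0778). miR-34a-3p averaged 760 ± 80.5 CPM in paused TSC and 1465 ± 540 CPM in control TSC, a log2 fold change of −1.02 ± 0.39 (SE; 95% interval −1.79 to −0.25; edgeR adjusted p = 0.0512). Here 17% of tested miRNAs were called lower and 18.9% in either direction, and 35.9% did not overlap with paused below control. The median of all tested miRNAs was −0.39, which leaves −0.40 for miR-34a-5p and −0.63 for miR-34a-3p relative to it. Of 5 tested trophoblast stem cell markers, 2 were called lower in paused TSC, and their part in these values was not tested.

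The TSC values depended on the scaling and the filter. With the total count alone miR-34a-5p stood at 10697 and 11907 CPM in paused TSC, against 13222 and 15434 CPM in control TSC, a log2 fold change of −0.34, while the median of all tested miRNAs became 0.08. The groups did not overlap on this scale either, but the share of all tested miRNAs without overlap was not counted on it. With a filter at 10 CPM both arms were called lower, at −1.14 (edgeR adjusted p = 0.0416) for miR-34a-5p and −1.40 (0.0215) for miR-34a-3p.

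**Figure D2:**
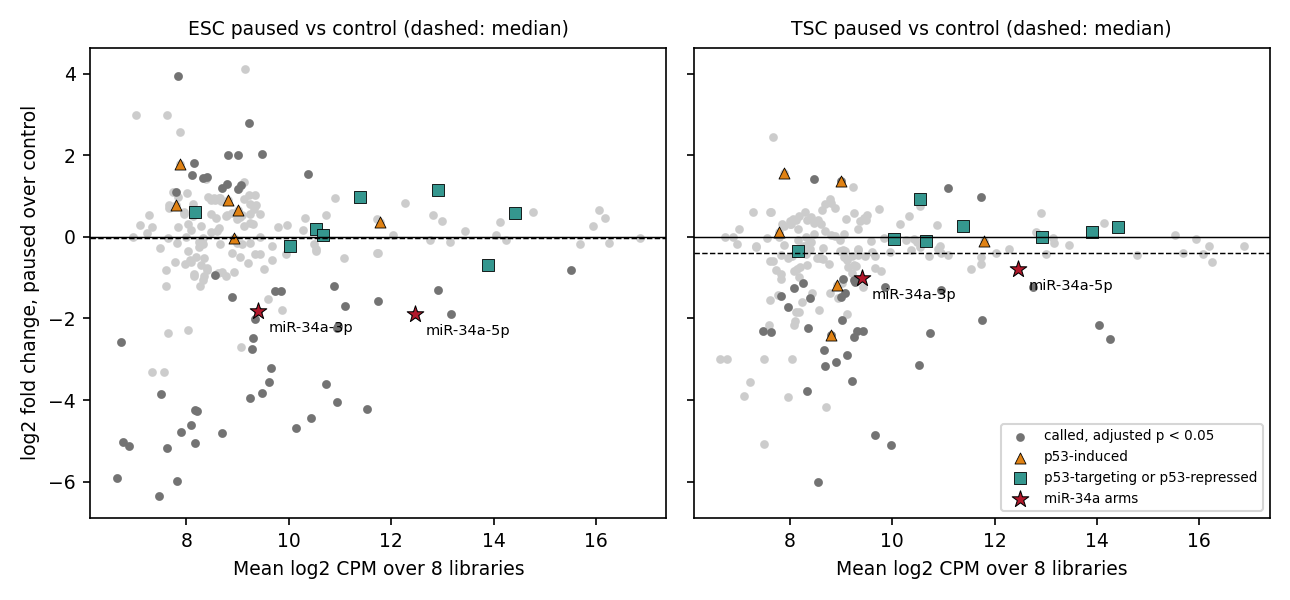
log2 fold change of paused over control against mean log2 CPM for the 206 tested miRNAs, in ESC (left) and TSC (right); stars are the miR-34a arms, triangles and squares the p53-linked lists, dark points miRNAs called at adjusted p under 0.05, and the dashed line the median. The arms lie at −1.90 and −1.83 among the called decreases in ESC, and at −0.78 and −1.02 in TSC, where the median is −0.39.

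The pause effects of the cell types were compared directly. For miR-34a-5p the effect in ESC minus that in TSC was −1.12 ± 0.48 (SE; 95% interval −2.06 to −0.18) on the log2 scale, with an edgeR adjusted p of 0.0608. For miR-34a-3p it was −0.81 ± 0.63 (SE; 95% interval −2.04 to 0.43; edgeR adjusted p = 0.354). In this comparison 26.2% of tested miRNAs were called in either direction and 11.7% lower. The difference in miR-34a-5p therefore missed the threshold, and it passed in 5 of the 8 fits without 1 library: without paused ESC replicate 1 (0.0402), paused ESC replicate 2 (0.0367), paused TSC replicate 1 (0.0278), control TSC replicate 1 (0.00908) or control TSC replicate 2 (0.00727). By DESeq2 (−1.21) it passed, and in edgeR it passed when TMM was replaced by the total count (−1.67) or by median-of-ratios factors (−1.21). It did not pass with TMM factors that left out the miR-290 cluster (−0.99, edgeR adjusted p = 0.280) or with no filter (−1.12, 0.272). Nor did it pass with the 10 CPM filter (−0.55, 0.686), with replicate number as a block within cell type (−1.13, 0.148) or with thinned libraries (−1.12, 0.0731).

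Over libraries rather than over the pooled spread, the paused minus control difference averaged over cell types was −1.32 for miR-34a-5p and −1.24 for miR-34a-3p in log2 CPM. An exact two-sided permutation test within cell types gave p = 0.0556 for each, the smallest that its 36 arrangements allow. Each arm was lower in every paused library than in every control library of the same cell type, as were 11.7% of all tested miRNAs.

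ESC had less miR-34a-5p than TSC in each state. Paused ESC averaged 1145 ± 174 CPM and paused TSC 10717 ± 368 CPM, 9.36-fold lower in ESC (log2 difference −3.23 ± 0.36 SE; adjusted p = 1.28e-17, edgeR). Control ESC averaged 4288 ± 263 CPM and control TSC 18424 ± 1455 CPM, 4.31-fold lower in ESC (−2.11 ± 0.35 SE; adjusted p = 7.77e-09, edgeR). Between these cell types most miRNAs differed: 76.7% were called in paused cells, 39.3% of all tested being lower in ESC, and 74.3% in control cells, 40.8% being lower in ESC. No overlap with ESC below TSC was found for 45.6% of them in paused cells and 45.1% in control cells. Both miR-34a-5p calls held in all 8 fits without 1 library. The log2 difference of miR-34a-5p between paused cells was smaller with TMM factors that left out the miR-290 cluster (−2.55) and with the 10 CPM filter (−2.58). It was called under both. The median of all tested miRNAs was 0.69 and 0.46 in these fits, against 0.01 in the main fit.

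miR-34a-3p was lower in paused ESC than in paused TSC (193 ± 9.82 and 760 ± 80.5 CPM; log2 difference −1.97 ± 0.46 SE; adjusted p = 3.77e-05, edgeR). With thinned libraries this call was lost (−1.18, 0.116), and it held at a smaller size with TMM factors that left out the miR-290 cluster (−1.30) and with the 10 CPM filter (−1.33). Between control ESC and control TSC (693 ± 13.7 and 1465 ± 540 CPM) miR-34a-3p was called lower at −1.16 ± 0.43 SE (edgeR adjusted p = 0.0108), but the call was lost with each other scaling, at −0.54 to −0.65, and in 6 of the 8 fits without 1 library. Those were the fits without paused ESC replicate 1 (0.124), paused ESC replicate 2 (0.126), control ESC replicate 1 (0.217), control ESC replicate 2 (0.165), paused TSC replicate 2 (0.0689) or control TSC replicate 1 (0.494). Relative to the median of all tested miRNAs, miR-34a-3p between control cells was −0.94 in the main fit. With the other scalings and DESeq2 it was −0.94 to −0.91, as that median moved from −0.23 to between 0.28 and 0.40. In log2 CPM over libraries, ESC minus TSC averaged −2.64 for miR-34a-5p and −1.36 for miR-34a-3p over the states (exact two-sided permutation p = 0.0556 for each, the smallest of 36 arrangements).

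**Figure D3:**
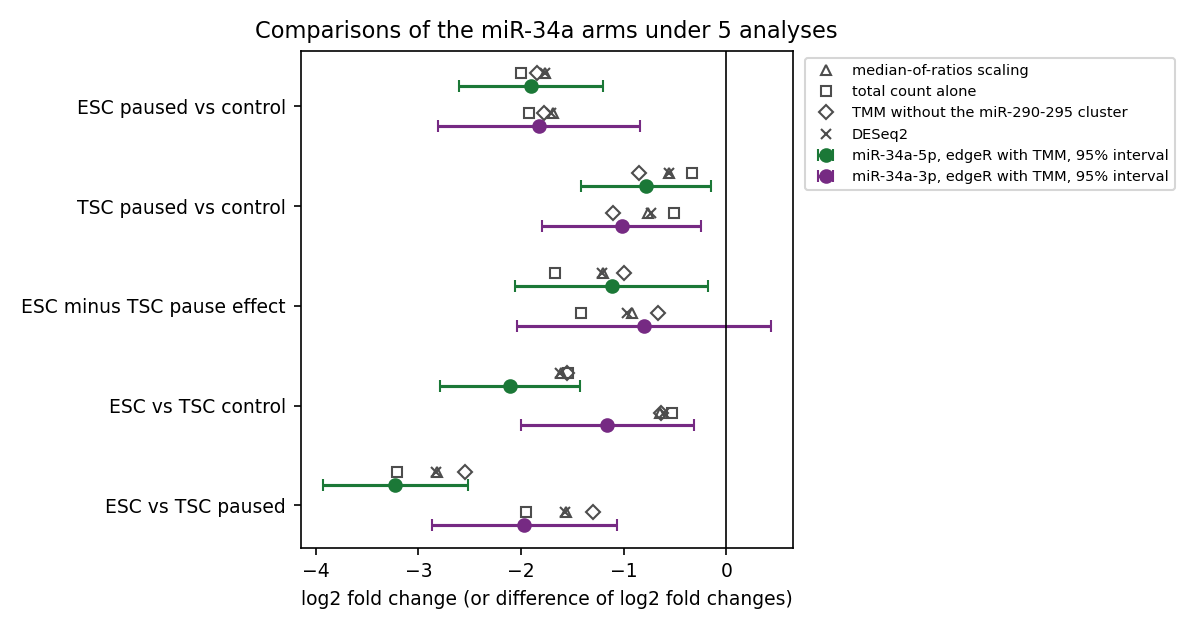
log2 fold changes of both miR-34a arms in 5 comparisons, with circles and 95% intervals from edgeR with TMM scaling and open symbols or crosses for 3 other scalings and DESeq2. The symbols for miR-34a-5p in ESC stay close to −1.90, while those for miR-34a-3p between control ESC and control TSC move to between −0.54 and −0.65.

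The share of miR-34a counts on the 5p arm separated the cell types and not the states. The 5p arm took 83.7% of 98 and 87.2% of 94 miR-34a counts in paused ESC, with exact Clopper-Pearson 95% intervals of 74.8% to 90.4% and 78.8% to 93.2%. In control ESC it took 85.7% of 105 (77.5% to 91.8%) and 86.4% of 81 (77.0% to 93.0%). It took 93.7% of 270 (90.1% to 96.3%) and 93.1% of 390 (90.1% to 95.4%) in paused TSC. The share in control TSC was 91.3% of 1672 (89.9% to 92.6%) and 94.1% of 307 (90.9% to 96.5%). Every ESC library lay below every TSC library. These intervals treat each read as independent and cover counting error only. The labels mention no molecular identifiers, so reads copied by PCR cannot be told from separate molecules.

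As a ratio, the 5p arm outnumbered the 3p arm 5.98 ± 1.21 times in paused ESC and 6.18 ± 0.257 times in control ESC, against 14.2 ± 1.02 times in paused TSC and 13.3 ± 3.91 times in control TSC (SD, n = 2 each). The log2 ratio, computed with 0.5 added to each count, was lower in ESC than in TSC by a mean of 1.18 over both states (difference −1.18; exact two-sided permutation p = 0.0556, the smallest of 36 arrangements). For pausing the mean difference over both cell types was 0.03 (exact permutation p = 0.944), with −0.06 in ESC and 0.11 in TSC, where 2 libraries against 2 cannot go below p = 0.33. At this depth a change of the ratio with pausing was not detectable, and the differences between the libraries of 1 group were as large.

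Other hairpins put the arm ratio in context. There were 76 with at least 20 counts on each arm over the 8 libraries, and in 37 of the 75 other than miR-34a the 5p arm held most counts. The pooled 5p share of miR-34a, 91.3%, was exceeded by 12 of the 75. The change with pausing was small for miR-34a: 72 of the 75 others had a larger absolute change in ESC and 65 had one in TSC. However, miR-34a had 2756 and 261 counts on its arms, while hairpins near the limit of 20 have ratios with large counting error. Rankings among these hairpins were not adjusted for depth. The difference between ESC and TSC was larger in absolute size for 30 of the 75, among which miR-503 (−2.90) and miR-20b (5.72) also had no overlap between ESC and TSC libraries. In all, 11.8% of the 76 hairpins had every ESC library below every TSC library, as miR-34a did.

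**Figure D4:**
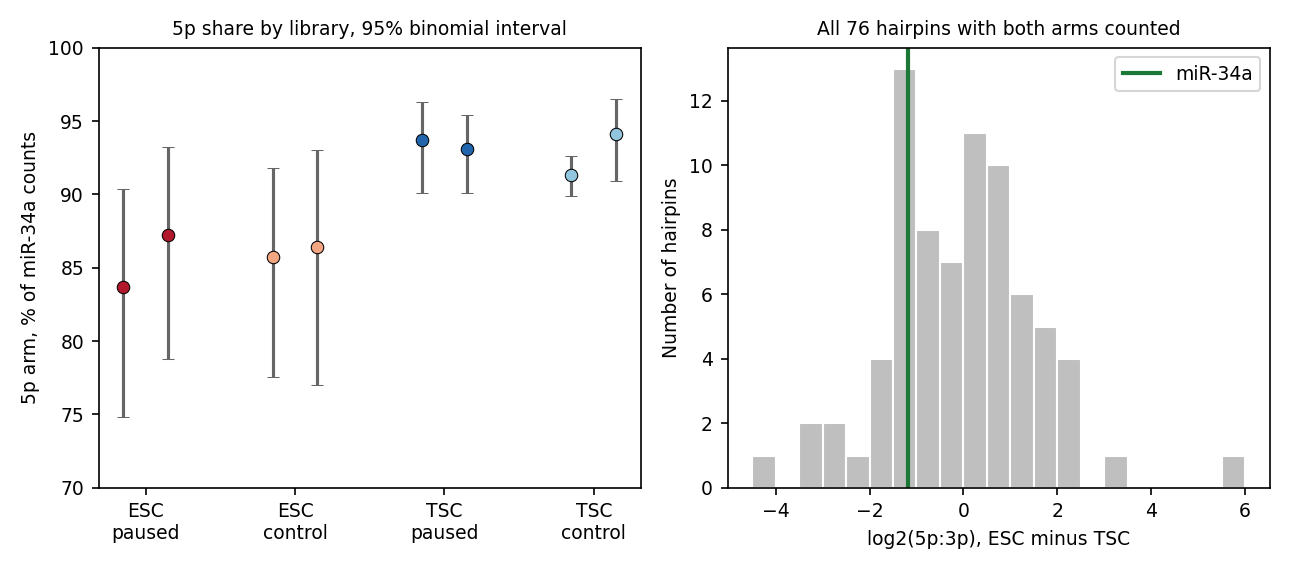
Left, share of the 5p arm among miR-34a counts in each library, with the exact 95% binomial interval; right, number of hairpins by the difference in log2(5p:3p) between ESC and TSC, with miR-34a marked. The 4 ESC libraries sit between 83.7% and 87.2%, the 4 TSC libraries between 91.3% and 94.1%, and miR-34a lies at −1.18 on the right.

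The rest of the miR-34/miR-449 family was nearly absent. miR-34b and miR-34c come from a shared locus on chromosome 9 and, like miR-34a, are known p53 targets, while the miR-449 hairpins are best known from multiciliated cells. Of 9 further family rows 7 had any count, and 0 passed the filter on low counts. miR-34b-5p had 0 counts in each ESC library, 1 and 2 in paused TSC, and 24 and 3 in control TSC. miR-34c-5p had 0 and 0 counts in paused ESC and 1 and 0 in control ESC, against 1 and 1 in paused TSC and 8 and 5 in control TSC. Both miRNAs were thus counted mainly in control TSC, the group with the most miR-34a-5p.

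On the total-count CPM scale, with the libraries of a group pooled, paused TSC had 0.275 times the miR-34b-5p of control TSC (95% counting interval 0.0535 to 0.895) and 0.381 times the miR-34c-5p (0.0418 to 1.68). Of the 27 miR-34b-5p counts of control TSC, 24 came from the deepest library. Control ESC had at least 2.20-fold lower miR-34b-5p than control TSC, taking the limit of 3 counts over the pooled group that a count of 0 allows. With the counting error of both groups, the exact 95% interval begins at 1.67-fold. miR-449a-5p had 3 and 0 counts in paused ESC and 0 in all other libraries, and miR-449c-5p had 1 and 2 in control ESC and 0 elsewhere. miR-34a-5p made up 98.2% of the family's 5p counts in paused ESC (exact 95% interval 94.8% to 99.6%) and 97.6% in control ESC (93.9% to 99.3%), against 99.2% in paused TSC (98.1% to 99.7%) and 97.8% in control TSC (97.1% to 98.5%).

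Other miRNAs linked to p53 were read from lists. Of 28 arms of miRNAs reported to be induced by p53, 6 passed the filter, and in paused ESC 0 were called higher and 0 lower by edgeR (1 higher and 0 lower at an unadjusted p under 0.05; 0 and 0 by DESeq2), beside 8.25% called higher and 19.4% called lower among all tested miRNAs. Their median log2 fold change was 0.73, on the other side of 0 from miR-34a. The log2 fold changes were 1.77 for miR-200c-3p (edgeR adjusted p = 0.0876) and 0.67 for miR-141-3p, its cluster partner and like it a guardian of the epithelial state. They were 0.90 for miR-203-3p, a promoter of epithelial differentiation, 0.37 for miR-22-3p, 0.79 for miR-22-5p and −0.03 for miR-143-3p, best known from smooth muscle. Control ESC had 4 counts of miR-200c-3p, 3 of miR-203-3p and 1 of miR-22-5p. It had 16 of miR-141-3p, 24 of miR-143-3p and 36 of miR-22-3p. The larger increases, and with them the median, thus rest on few counts. Several listed arms, among them miR-16-5p and miR-194-5p, stood at 0 in all libraries, so the list is measured in part only. A 0 need not mean absence, as miR-16-2-3p, a 3p arm of miR-16, had 41 counts in paused ESC. The handling of reads that match several miRNAs is not given.

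In paused TSC the same list had 1 member called higher and 1 lower, beside 1.94% and 17% of all tested miRNAs (2 higher and 2 lower at an unadjusted p under 0.05; 0 and 1 by DESeq2). miR-203-3p fell to 526 ± 16.4 CPM in paused TSC, against 2739 ± 468 CPM in control TSC (log2 fold change −2.40, edgeR adjusted p = 5.23e-07). miR-141-3p rose to 673 ± 74.8 CPM in paused TSC, against 254 ± 18.9 CPM in control TSC (1.37, edgeR adjusted p = 0.0303). This increase was not called by DESeq2, and 0 members were called higher without paused TSC replicate 2 or without control TSC replicate 1. The median of the list was 0.00, against −0.39 for all tested miRNAs.

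The other list held 11 miRNAs that target the p53 message or are reported to be repressed by p53, of which 8 were tested. In paused ESC 2 were called higher and 0 lower. miR-25-3p, which targets p53 in human cells, rose to 22150 ± 2623 CPM in paused ESC, against 9965 ± 1440 CPM in control ESC (log2 fold change 1.15, edgeR adjusted p = 0.00272). miR-92a-3p, of the growth-promoting miR-17-92 cluster, rose to 7965 ± 243 CPM in paused ESC, against 4050 ± 395 CPM in control ESC (0.97, edgeR adjusted p = 0.0230). With scaling factors that left out the miR-290 cluster, or without paused ESC replicate 1, 1 was called higher. miR-17-5p had −0.68 (edgeR adjusted p = 0.0924), miR-19a-3p 0.58, miR-19b-3p 0.61, miR-18a-5p −0.22, miR-20a-5p 0.04 and miR-125a-5p 0.19. With the total count alone, or without control TSC replicate 1 or replicate 2, 1 member was called lower.

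In paused TSC 0 of these 8 were called by edgeR in either direction (1 higher and 0 lower at an unadjusted p under 0.05), and 1 was called higher by DESeq2. miR-125a-5p, which targets p53 in human cells, had 4219 ± 705 CPM in paused TSC and 2151 ± 489 CPM in control TSC (log2 fold change 0.94, edgeR adjusted p = 0.0519). The other 7 lay between −0.34 for miR-19b-3p and 0.26 for miR-92a-3p. Up to 2 members were called higher with other scalings or without 1 library, the most with the total count alone and without control TSC replicate 1.

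The miRNAs whose pattern was most like that of miR-34a-5p were ranked by Pearson's r of log2 CPM over the 8 libraries, which share their cell type, state and depth. The 5 highest of 205 were miR-467e-3p (r = 0.993), miR-324-5p (0.990), miR-467d-5p (0.979), miR-301a-3p (0.978) and miR-467e-5p (0.977). miR-34a-3p ranked 15th with r = 0.947. miR-301a-3p belongs to the miR-130 seed family and lies on chromosome 11 (87113054 to 87113076), as does miR-324-5p (70012060 to 70012082). The miR-467 arms have near-identical relatives in the Sfmbt2 intronic cluster, so their counts may be split or shared among copies.

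As follows from their selection, all 5 repeated the order of miR-34a-5p in their group means. miR-324-5p averaged 97.8 ± 14.8 CPM in paused ESC and 397 ± 18.9 CPM in control ESC, then 1395 ± 336 CPM in paused TSC and 1859 ± 416 CPM in control TSC (SD, n = 2 each). miR-301a-3p averaged 1516 ± 43.3 CPM in paused ESC and 5666 ± 1568 CPM in control ESC, then 27234 ± 239 CPM in paused TSC and 29963 ± 8411 CPM in control TSC. miR-467e-5p averaged 308 ± 41.2 and 1419 ± 72.6 CPM in paused and control ESC, then 4980 ± 29.6 and 6356 ± 3370 CPM in paused and control TSC. All 5 were called lower in paused ESC, where 19.4% of all tested miRNAs were. This too follows from the choice of the 5 by their correlation over the same libraries. In paused TSC miR-467d-5p was called lower (−1.10, edgeR adjusted p = 0.0328), while the other 4 had values between −0.75 and −0.14 that did not pass the test. miR-467e-3p had 1 count in paused ESC and 7 in control ESC, so its place at the top rests on few counts there.

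**Figure D5:**
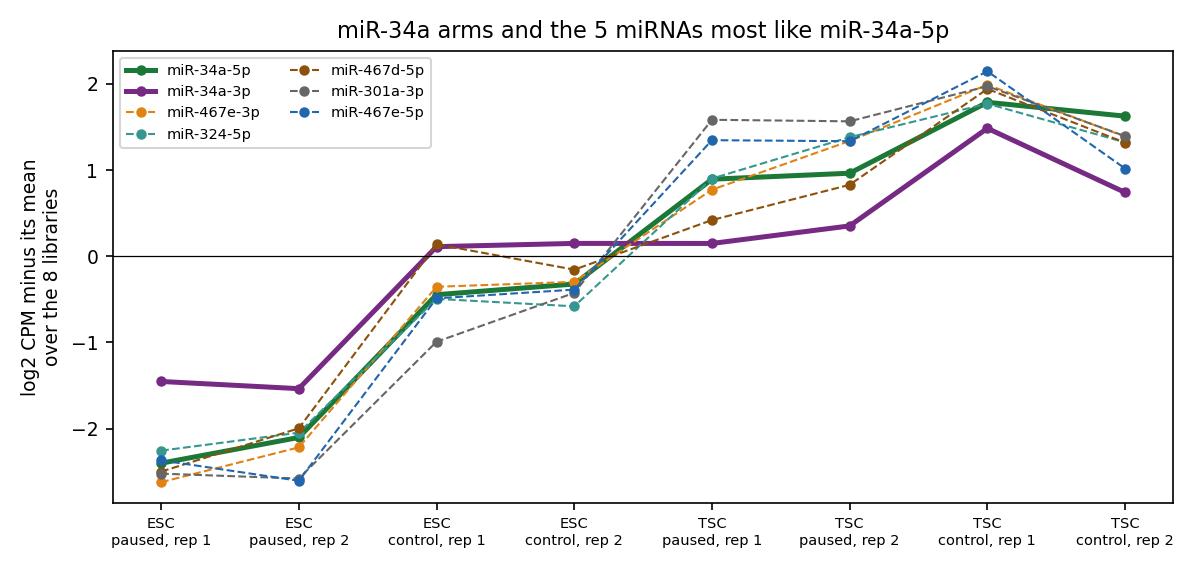
log2 CPM of the miR-34a arms (thick lines) and of the 5 miRNAs most like miR-34a-5p (dashed lines) in each library, each minus its own mean over the 8 libraries; lines only join the points of 1 miRNA. Paused ESC libraries lie lowest and control TSC libraries among the highest for miR-34a-5p (−2.40 to 1.79), and the dashed lines run close to it.

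Marker miRNAs of other cell types moved with some groups. The blood list, of which miR-142a-5p, miR-142a-3p and miR-150-5p were detected and miR-223-3p and miR-451a stood at 0, held 0.483% to 0.567% of counts in paused ESC and 0.893% to 1.11% in control ESC, against 0% to 0.00423% in paused TSC and 0% to 0.0121% in control TSC. The fibroblast and mesenchyme list, whose miR-199a arms and miR-196a-5p stood at 0, held 0.249% to 0.262% in paused ESC and 0.301% to 0.343% in control ESC, against 0.803% to 1.29% in paused TSC and 0.326% to 0.487% in control TSC. Members of a list went different ways. In paused ESC miR-142a-5p (36 counts, against 172 in control ESC; log2 fold change −4.25) and miR-142a-3p (20, against 75; −3.86) were called lower and miR-150-5p (659, against 76; 2.30-fold) was called higher. In paused TSC miR-21a-5p was called higher (9602 ± 3057 CPM, against 4800 ± 2021 CPM in control TSC; 0.97, edgeR adjusted p = 0.0294), while miR-143-3p, the other tested member of its list, had −1.18 (0.0949). The part of these markers in the miR-34a levels was not tested. Here too a 0 need not mean absence, since the handling of reads that match several miRNAs is not given.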

How the data were processed

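The authors deposited 1 unnormalised count for each mature miRNA arm and sample. Per the submitters' processing notes the genome build was GRCm38. How reads were trimmed, aligned and counted, and what was done with reads that match several miRNAs, is not given in the sources used here. Per the labels' protocols, libraries were made from 10 ng of small RNA with the SMARTer smRNA-seq kit and 12 PCR cycles and sequenced to 75 bp.

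Counts were analysed with edgeR 4.0.16 (R 4.3.3): TMM scaling, filterByExpr with a minimum of 10 counts (206 miRNAs kept, including both miR-34a arms), 1 quasi-likelihood model with a mean per group over 8 libraries (4 residual degrees of freedom), two-sided tests, Benjamini-Hochberg adjustment over all 206, calls at adjusted p under 0.05. edgeR's estimate of prior degrees of freedom was infinite, so its p-values rest on a spread shared by all miRNAs. The code was tested on simulated data. A floor of 3 counts was worth 26.0 to 220 CPM. Arm ratios used exact permutation tests (scipy 1.17.1) and Clopper-Pearson intervals. The hairpin was folded with ViennaRNA 2.7.2. DESeq2 1.42.0, other scalings and filters, all 12 files, a replicate block, thinning and each library left out in turn were tried.

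The miRNAs and lists were chosen with earlier results of these data known. Named are the arms of miR-34a, tested list members, and the 5 miRNAs most correlated with miR-34a-5p; low-count family members are named by counts.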

Additional observations from a re-analysis of the deposited data

How the results depend on the processing

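miR-34a-5p in paused against control ESC, and in ESC against TSC in either state, kept its direction and call under every alternative. Without 1 library the log2 fold changes ran from −1.84 to −1.51 in ESC pausing, −1.99 to −1.74 between control cells and −3.26 to −2.99 between paused cells; over the other settings the smallest sizes were −1.59, −1.54 and −2.55. For miR-34a-3p in ESC the call was lost by DESeq2 (−1.70), with no filter (−1.54) and when thinned (−1.24), with −1.91 to −1.46 without 1 library. Between control cells it was −0.61 by DESeq2, −0.65 with median-of-ratios scaling, −0.54 with the total count alone, −0.64 with TMM without the miR-290 cluster, −0.78 with no filter, −1.11 with the 10 CPM filter, −1.09 with the replicate block and −1.09 when thinned, all uncalled, with −0.99 to −0.40 without 1 library; between paused cells it was −1.18 when thinned and uncalled, −1.30 with TMM without the cluster and −1.33 with the 10 CPM filter, both called, and −2.06 to −1.64 without 1 library. In TSC pausing the arms were called with the 10 CPM filter (−1.14 for 5p, −1.40 for 3p) and with all 12 files as libraries (−0.73 and −0.88), where copies of a file act as replicates; without 1 library they ran from −0.58 to −0.30 and −0.82 to −0.25, uncalled. The ESC minus TSC pause effect of miR-34a-5p was called by DESeq2 (−1.21), with the total count alone (−1.67), median-of-ratios scaling (−1.21) and all 12 files (−1.14), with −1.45 to −1.02 without 1 library, and was −0.55, uncalled, with the 10 CPM filter. That of miR-34a-3p was uncalled throughout, at −1.49 to −0.77 without 1 library, −0.66 with TMM without the cluster, −0.21 with the 10 CPM filter and −0.086 when thinned.

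The 5p:3p difference between ESC and TSC was −1.18 with all 12 files (exact permutation p = 0.005) and −1.33 to −1.04 without 1 library. With all 12 files, copies of a file act as replicates, so that p-value does not count. The distinct libraries gave an exact permutation p of 0.0556, the smallest possible there. The pausing difference changed sign: it was −0.0056 with all 12 files (−0.0075 in TSC), and −0.12 to 0.17 over both cell types, −0.26 to 0.14 in ESC and −0.18 to 0.40 in TSC without 1 library. Without 1 library, the log2 CPM differences of paused and control ran from −1.40 to −1.25 (5p) and −1.43 to −1.06 (3p), and those of ESC and TSC from −2.71 to −2.56 and −1.55 to −1.18. With the total count alone they were −1.16 and −1.09 for pausing, and −2.35 and −1.10 for the cell types.

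Of the p53-induced list, members called higher in TSC numbered 0 by DESeq2 and with TMM without the cluster, 2 with the total count alone and 0 to 1 without 1 library, and in ESC 0 to 1. Of the other list, members called higher in ESC numbered 1 with TMM without the cluster (1 to 3 without 1 library), members called lower 1 with the total count alone (0 to 1), and members called higher in TSC 1 by DESeq2, 2 with the total count alone and 1 with DESeq2-type scaling in edgeR (0 to 2). The cause of these shifts was not tested. Thinning was chosen after seeing the data.

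The replicate numbers share only a number: deviations of same-numbered libraries had r = −0.07 in ESC and −0.18 in TSC over 206 miRNAs. With the replicate block within cell type, calls over all tested miRNAs were 44 against 57 in ESC, 12 against 39 in TSC and 31 against 54 for the difference of pause effects; among the miR-34a arms it ended only the miR-34a-3p call between control cells. With crossed numbers, a choice added after seeing the data, the calls were 64, 39 and 66, and 2 of the 10 tests of the miR-34a arms passed that had not. Depth limits miR-34a-3p, with 11 to 27 counts in 7 of 8 libraries, and leaves the rest of the family untested.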
